A study of Mus musculus with 24 samples.

Results

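Conventional dendritic cells (cDC) of the CD11b+ subset from nonobese diabetic (NOD) mice were compared with the same cells from C57BL/6 (B6) mice, in animals that had received PBS and no stimulus. The members were the 3 arrays titled as CD11b+ cells of NOD mice under PBS and the 3 titled so for B6 mice, 6 of the 24 arrays of the series. The NOD arrays came from female NOD/ShiLt mice and the B6 arrays from female C57BL/6 mice. All were 8 to 10 weeks old, and PBS had been injected 12 h before the spleen was taken and digested with collagenase. CD11c+ cells were sorted by flow cytometry into the CD11b+ and CD8+ subsets, and 5 ng of total RNA per sample was amplified, converted to cDNA and labelled with biotin, 2.5 µg of cDNA for each array. The other arrays hold the same subset after CpG-A, an oligonucleotide sensed by Toll-like receptor 9, and the CD8+ subset of both strains after PBS or CpG-A, again with 3 arrays per group. NOD and B6 are unrelated inbred strains that differ at many loci, so a strain difference here is not assigned to any locus. The labels do not say how many mice made a sample, or whether a group's samples came from separate mice, so a p value here reflects sample-to-sample spread that could be technical.

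Dendritic cells take up antigen and present it to T cells. The CD11b+ subset, also called cDC2, is known for presentation to CD4+ T cells, and the CD8+ subset, cDC1, for cross-presentation to CD8+ T cells. NOD mice develop autoimmune diabetes and B6 mice do not, and the comparison asks how resting CD11b+ cDC of both strains differ before any stimulus. Type I interferon acts on most cells through a receptor that activates STAT and IRF proteins, which bind interferon-stimulated response elements in the promoters of antiviral genes. Many cells hold a low level of such transcripts at rest.

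Values are log2 expression values as deposited, so 1 unit is a 2-fold change, and levels of different genes cannot be set against each other. Of 35556 probe sets, 21789 carried a single gene symbol and stood for 19938 genes. Of these, 11228 genes exceeded the median of an array on at least 3 of the 24 arrays and were tested, and 8710 did not and were not. The filter was passed by 1246 of the tested genes with fewer than 3 of the 6 CD11b+ PBS arrays above the median. Each difference below is the NOD mean minus the B6 mean on the log2 scale, ± its standard error from limma with n = 3 arrays per group, and a gene is called at an adjusted p under 0.05 over all 11228 genes. Every fit was repeated with each of the 6 arrays left out in turn, which gave 424 to 487 called genes, and where a named gene lost its call the arrays and the largest adjusted p are stated. Of 31 called genes with another tested probe set none was called in the opposite direction there, 20 had a probe set with the same call and 15 had one that was not called. Array medians were 5.8 to 5.87 on the 6 arrays. An array's mean correlation over genes was 0.9827 to 0.9865 with the others of its own strain and 0.9623 to 0.9655 with those of the other strain.

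Resting CD11b+ cDC of NOD mice differed from those of B6 mice in 628 genes, 5.59% of those tested, with 271 higher in NOD (2.41%) and 357 lower in NOD (3.18%). At least a 2-fold difference was found for 71 of the higher and 102 of the lower genes, while the median difference over all tested genes was -0.0015. An unadjusted p under 0.05 was found for 1690 genes. Strain differences in the sequence under a probe were not tested for any gene, so a higher or lower value in NOD may not be a difference in transcript level. Among called genes the largest increases were those of BC018473, an uncharacterised transcript, and of Cygb, the oxygen-binding cytoglobin. BC018473 stood at 9.63, 9.68 and 9.72 in NOD and 4.75, 4.55 and 4.54 in B6 cells (5.06 ± 0.22, adjusted p = 1.31e-13). Cygb stood at 11.06, 10.95 and 11.02 in NOD and 7.03, 7.31 and 7.20 in B6 cells (3.83 ± 0.17, adjusted p = 1.6e-13). The lowest genes in NOD were Apol7c, a member of the apolipoprotein L family, at 5.09, 4.40 and 5.17 in NOD and 11.21, 10.23 and 10.98 in B6 cells (-5.92 ± 0.28, adjusted p = 3.84e-13), and Trim12a, a tripartite motif protein. Trim12a stood at 3.46, 3.95 and 4.19 in NOD and 8.59, 8.51 and 8.57 in B6 cells (-4.69 ± 0.18, adjusted p = 1.81e-14). For all 4 genes the 2 sets of arrays lay far apart and did not overlap. BC018473 lay below the array median on every B6 array, and Apol7c and Trim12a on every NOD array, where little signal stands over background, so these 3 differences depend on the background level. The same holds for other genes below the median on every array of a strain. Among those named below are Scn3a, Nkg7 and Gzma in NOD and Zfp979, Trem1, Cmah and Vsx1 in B6 cells. Groups of arrays that did not overlap were found for 23.5% of all tested genes, 11.7% with NOD higher and 11.8% with NOD lower.

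**Figure D1:**
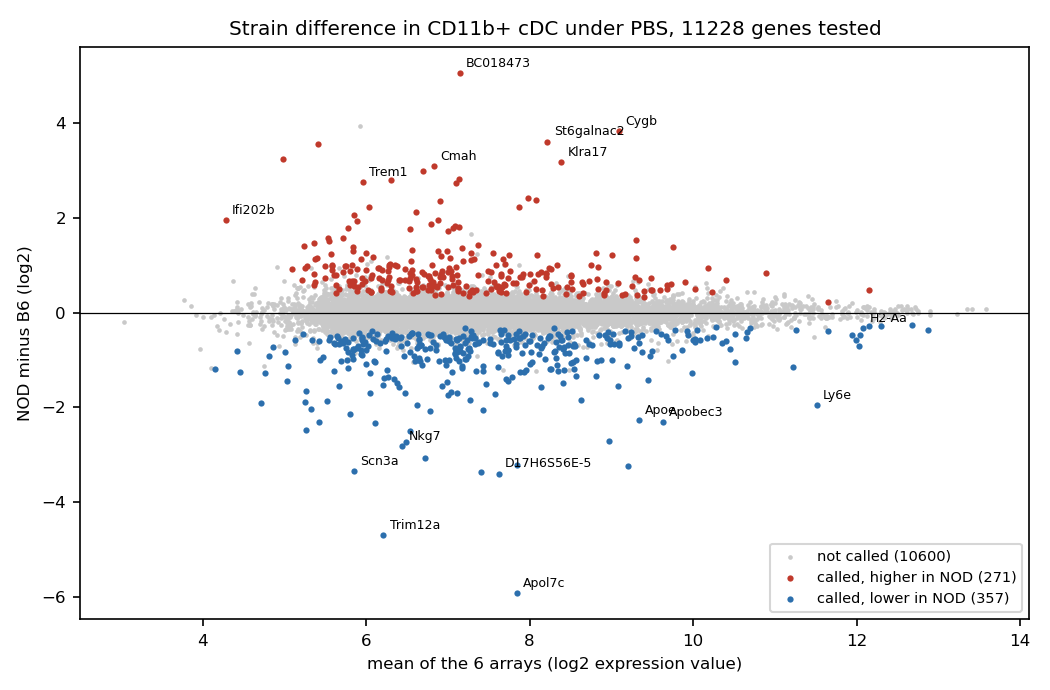
Strain difference (NOD minus B6, log2) against the mean log2 expression value of the 6 arrays, with 1 point per tested gene. The 271 genes called higher in NOD are red, the 357 called lower are blue and the others grey, and most genes lie near a difference of 0 while BC018473 at 5.06 and Apol7c at -5.92 mark the ends.

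Markers of the labelled subset were high in both strains. Itgam, which encodes CD11b, stood at 8.54, 8.93 and 8.89 in NOD and 9.0, 9.03 and 8.99 in B6 cells, and Itgax, which encodes CD11c, at 11.20, 11.18 and 11.15 in NOD and 11.32, 11.28 and 11.29 in B6 cells. Sirpa, an inhibitory receptor of the CD11b+ subset, stood at 11.49, 11.24 and 11.40 in NOD and 11.22, 11.18 and 11.29 in B6 cells, and the lectin gene Clec4a4 (DCIR2) at 8.67, 9.46 and 9.10 in NOD and 8.86, 9.16 and 8.80 in B6 cells, and none of these 4 was called. Of 24 tested CD11b+ cDC markers 2 were higher and 1 was lower in NOD (12.5% called, against 5.59% of all tested genes). Their median difference was 0.099, and none of 11 pan-cDC markers was called. The 2 higher markers were Il1r2, the decoy receptor for interleukin-1, at 7.47, 8.17 and 8.04 in NOD and 6.65, 7.19 and 6.43 in B6 cells (1.14 ± 0.27, adjusted p = 0.01), and Epcam, an adhesion molecule, at 6.37, 6.71 and 6.81 in NOD and 5.71, 5.62 and 5.74 in B6 cells (0.94 ± 0.13, adjusted p = 3.31e-05). The lower one was the inhibitory lectin gene Clec12a, at 6.29, 6.94 and 6.90 in NOD and 8.30, 8.27 and 8.08 in B6 cells (-1.51 ± 0.21, adjusted p = 4.27e-05). The arrays of the strains did not overlap for any of these 3. Il1r2 lost its call without NOD replicate 2 or B6 replicate 3 (adjusted p up to 0.0707). The summed level of the CD11b+ cDC list, taken as log2 of the sum of linear values, ran from 13.98 to 14.13 in NOD and from 13.98 to 14.06 in B6 cells, and that of the pan-cDC list from 14.04 to 14.13 in NOD and from 14.02 to 14.11 in B6 cells.

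Markers of the other cDC subset showed 2 higher and 3 lower members of 24 tested (20.8% called, against 5.59% of all tested genes), with a median of -0.101. Cd8a, the chain that defines the CD8+ subset, stood at 5.04, 5.14 and 6.15 on the NOD arrays, against 6.47, 7.10 and 7.31 on the B6 arrays (-1.52 ± 0.26, adjusted p = 0.000382). Clec9a, a receptor for dead cells on the CD8+ subset, stood at 7.83, 7.77 and 8.02 on the NOD arrays, against 8.68, 8.57 and 8.90 on the B6 arrays (-0.84 ± 0.17, adjusted p = 0.00204), and both genes were lower on every NOD array than on any B6 array. Xcr1, the chemokine receptor that marks the CD8+ subset, was not called, at 6.81, 7.01 and 7.0 in NOD and 7.31, 6.99 and 7.15 in B6 cells. Septin3, a septin of this list, was higher in NOD at 7.17, 7.39 and 7.71 in NOD and 5.43, 5.72 and 5.80 in B6 cells (1.77 ± 0.29, adjusted p = 0.000244). The summed level of the list was 13.02 to 13.15 in NOD and 12.95 to 13.17 in B6 cells. Markers of plasmacytoid dendritic cells were not called in any of 11 tested members, with a summed level of 11.30 to 11.53 in NOD and 11.46 to 11.52 in B6 cells, and Siglech lay above the array median on 1 NOD and 1 B6 array.

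Many transcripts of natural killer (NK) cells were lower in the NOD sort. All 15 listed NK genes were tested, 8 were lower (53.3%, against 3.18% of all tested genes) and none was higher in NOD, with a median difference of -1.12. For 12 of them every NOD array lay below every B6 array, as for 11.8% of all tested genes. Nkg7, a protein of cytotoxic granules, stood at 4.76, 4.91 and 5.42 on the NOD arrays, against 7.49, 8.56 and 7.50 on the B6 arrays (-2.82 ± 0.29, adjusted p = 4.38e-07). Gzma, which encodes granzyme A, stood at 4.79, 5.02 and 5.56 on the NOD arrays, against 7.83, 8.80 and 6.92 on the B6 arrays (-2.72 ± 0.36, adjusted p = 1.72e-05). Ncr1, the receptor NKp46, stood at 4.15, 4.39 and 4.39 on the NOD arrays, against 6.13, 6.78 and 6.12 on the B6 arrays (-2.04 ± 0.27, adjusted p = 1.5e-05), and lay above the array median on 0 NOD arrays and on 3 B6 arrays. Within B6, replicate 2 was the highest of the 3 arrays for each of these genes, while the NOD arrays lay below all of them. Also lower were Klrc1, the inhibitory receptor NKG2A (-2.31 ± 0.41, adjusted p = 0.000698), Il2rb, a chain of the receptors for interleukin-2 and interleukin-15 (-1.70 ± 0.31, adjusted p = 0.00105), and the chemokine gene Xcl1 (-1.67 ± 0.27, adjusted p = 0.000259). Klrb1c, the receptor NK1.1, stood at 3.64, 3.49 and 3.54 in NOD and 4.52, 5.19 and 4.55 in B6 cells (-1.20 ± 0.28, adjusted p = 0.00987). It lay below the array median on every NOD and B6 array, where little signal stands over background. Ccl5, a chemokine gene of the list, stood at 11.85, 11.57 and 11.71 in NOD and 12.26, 12.14 and 12.13 in B6 cells (-0.47 ± 0.08, adjusted p = 0.000827). Its mean in CD8+ cDC under PBS was 12.11 in NOD and 12.07 in B6, and which cells it came from was not tested. Perforin (Prf1) and granzyme B (Gzmb) were not called, with differences of -0.48 ± 0.22 (adjusted p = 0.303) and -0.66 ± 0.29 (adjusted p = 0.265). The number of lower NK genes was 7 to 9 when 1 array was left out. Klrb1c lost its call without B6 replicate 2 (adjusted p = 0.0796). The summed level of the list was 12.48 to 12.56 in NOD and 12.81 to 13.06 in B6 cells, and it depends largely on Ccl5, the values of which are given above. The mean log2 level of the members, in which each gene counts alike, was 5.93 to 6.06 in NOD and 6.86 to 7.58 in B6 cells. In such a bulk sample fewer cells of a type and less RNA per cell cannot be told apart.

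**Figure D2:**
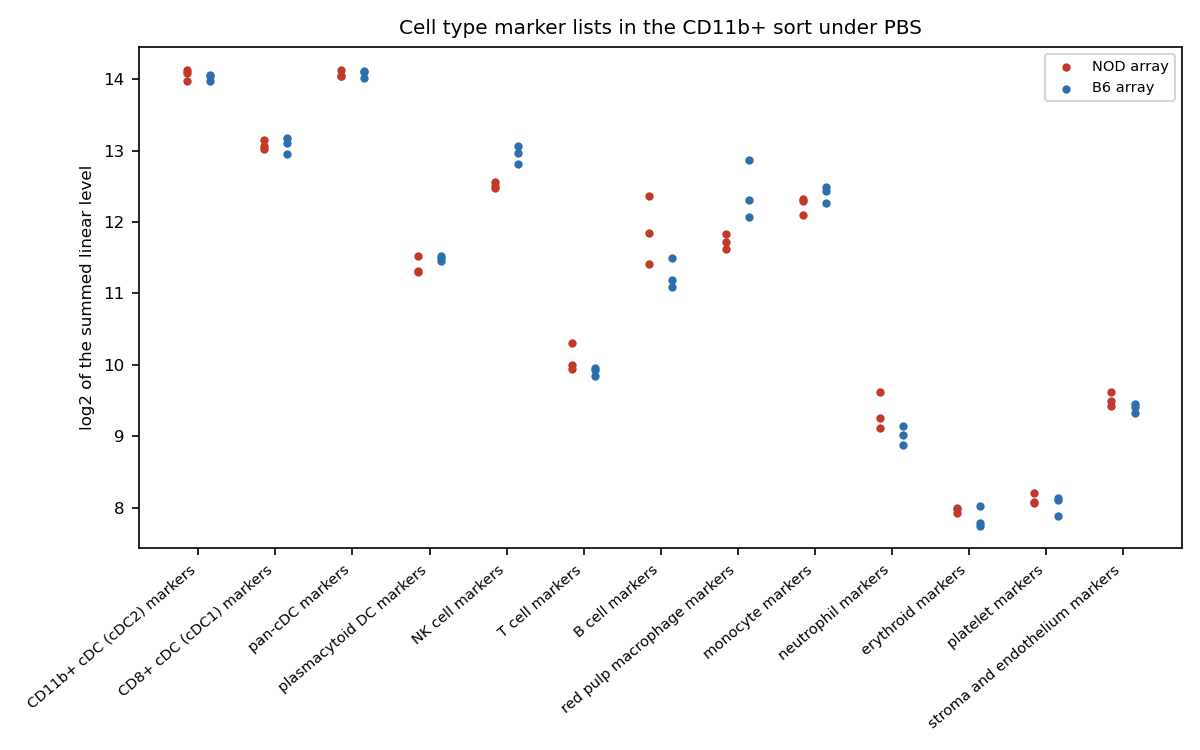
Summed level of each cell type marker list on each array of the CD11b+ sort under PBS, as log2 of the sum of linear values over the members on the array, with NOD arrays in red left of B6 arrays in blue. The dendritic cell lists overlap between the strains. The NK cell list, whose sum depends largely on Ccl5, lies at 12.48 to 12.56 in NOD and 12.81 to 13.06 in B6 cells. The red pulp macrophage list lies at 11.62 to 11.83 in NOD and 12.07 to 12.87 in B6 cells.

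Part of the red pulp macrophage genes were lower as well, and these calls depended on single arrays. Of 15 listed genes 13 were tested, 6 were lower (46.2%, against 3.18% of all tested genes) and none was higher in NOD, with a median of -1.20. Vcam1, an adhesion molecule of these macrophages, stood at 7.26, 7.27 and 7.23 on the NOD arrays, against 8.02, 9.15 and 8.34 on the B6 arrays (-1.25 ± 0.24, adjusted p = 0.00133). Hmox1, the haem-degrading oxygenase, stood at 8.97, 8.78 and 8.47 on the NOD arrays, against 9.78, 10.53 and 10.16 on the B6 arrays (-1.42 ± 0.33, adjusted p = 0.00867). Cd5l, a secreted scavenger protein, stood at 4.62, 4.56 and 4.57 on the NOD arrays, against 5.91, 7.29 and 6.16 on the B6 arrays (-1.87 ± 0.43, adjusted p = 0.00867). Replicate 2 of B6 was the highest array for all 3, and the NOD arrays lay below every B6 array. The iron exporter Slc40a1 (-1.69 ± 0.43, adjusted p = 0.0187), the complement subunit C1qa (-1.36 ± 0.38, adjusted p = 0.0351) and the receptor tyrosine kinase Axl (-0.88 ± 0.25, adjusted p = 0.0375) were the other 3 called, and Spic, a transcription factor these macrophages need, was not (-0.69 ± 0.24, adjusted p = 0.122). Without replicate 2 of B6 only 1 member was called and the median was -0.844, and 3 were called without B6 replicate 3, NOD replicate 1 or NOD replicate 3. Hmox1 lost its call without NOD replicate 3 or B6 replicate 2 (adjusted p up to 0.0627), and Cd5l without B6 replicate 2 (adjusted p = 0.0802). Slc40a1 lost its call without NOD replicate 1 or 3 or B6 replicate 2 or 3 (adjusted p up to 0.134), and C1qa without NOD replicate 1 or 2 or B6 replicate 2 or 3 (adjusted p up to 0.216). Axl lost its call without NOD replicate 1, 2 or 3 or B6 replicate 2 or 3 (adjusted p up to 0.21). The mannose receptor gene Mrc1, carried by macrophages among other cells, was also lower (-1.28 ± 0.34, adjusted p = 0.027). Mrc1 lost its call without NOD replicate 2 or 3 or B6 replicate 2 (adjusted p up to 0.225). The macrophage list's summed level was 11.62 to 11.83 in NOD and 12.07 to 12.87 in B6 cells.

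Of 14 tested B cell markers 2 were called (14.3%, against 5.59% of all tested genes), both higher in NOD. The list's median was 0.69, or 0.312 to 0.933 with 1 array left out. Cr2, which encodes complement receptor CD21, stood at 7.70, 8.39 and 7.93 on the NOD arrays, against 5.79, 6.65 and 6.09 on the B6 arrays (1.83 ± 0.45, adjusted p = 0.0136). Blk, a kinase of B cells, stood at 6.93, 7.08 and 7.40 on the NOD arrays, against 6.33, 6.50 and 6.30 on the B6 arrays (0.77 ± 0.22, adjusted p = 0.0455). Neither gene's arrays overlapped between strains. The number of called markers was 0 or 1 when any 1 array was left out. Cr2 lost its call without NOD replicate 2 or B6 replicate 1 or 3 (adjusted p up to 0.0879), and Blk without any 1 of the 6 arrays (adjusted p up to 0.207). Outside the list, antibody transcripts were among the highest genes, with Ighm, the mu heavy chain, at 8.38, 8.86 and 10.34 on the NOD arrays, against 6.24, 7.17 and 6.90 on the B6 arrays (2.42 ± 0.46, adjusted p = 0.00142). Jchain, the joining chain of polymeric antibodies, stood at 7.69, 8.60 and 9.12 on the NOD arrays, against 5.59, 5.98 and 5.65 on the B6 arrays (2.73 ± 0.42, adjusted p = 0.000108). The light chain segment Igkv6-20 (2.06 ± 0.28, adjusted p = 2.81e-05) was higher too, with probes that near-identical segments may share. For all 3, replicate 3 was the highest of the NOD arrays and no NOD array fell within the B6 range. The summed level of the B cell list was 11.41, 11.85 and 12.37 in NOD and 11.09, 11.50 and 11.19 in B6 cells, and its part in the antibody gene result was not tested.

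Among neutrophil markers, 4 of 13 listed genes were tested, and 2 were higher and 1 lower in NOD (75% called, against 5.59% of all tested genes). S100a8, the defining neutrophil gene, was not called. It stood at 5.87, 6.44 and 6.51 in NOD and 5.71, 5.93 and 4.79 in B6 cells, and the arrays overlapped. The calprotectin gene S100a9 was higher in NOD at 6.56, 7.0 and 8.10 on the NOD arrays, against 6.03, 6.33 and 5.37 on the B6 arrays (1.31 ± 0.38, adjusted p = 0.0455). Retnlg, a resistin-like protein of neutrophils, was higher (0.89 ± 0.20, adjusted p = 0.00771), and Csf3r, the receptor for granulocyte colony-stimulating factor, was lower (-0.61 ± 0.16, adjusted p = 0.0238). S100a9 lost its call without NOD replicate 2 or 3 or B6 replicate 1 or 3 (adjusted p up to 0.295), and Retnlg without NOD replicate 2 (adjusted p = 0.0703). Csf3r lost its call without NOD replicate 1 or 2 or B6 replicate 1, 2 or 3 (adjusted p up to 0.129). The summed level of this list was 9.12 to 9.62 in NOD and 8.88 to 9.15 in B6 cells. Of 9 tested T cell markers only Il7r, the interleukin-7 receptor chain, was called (11.1%), and it was higher in NOD (0.89 ± 0.24, adjusted p = 0.0256). Il7r lost its call without NOD replicate 3 or B6 replicate 2 or 3 (adjusted p up to 0.183). Cd3e, a chain of the T cell receptor complex, was not called, at 5.36, 5.55 and 5.67 in NOD and 5.74, 6.0 and 5.94 in B6 cells, and lay above the array median on 0 NOD and 2 B6 arrays. None of 5 monocyte, 3 erythroid and 4 platelet markers tested was called, and Pf4, the defining platelet gene, lay below the median on all 6 arrays.

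Of all 48 lists examined, that of type I interferon-stimulated genes had the most tested members and held the most calls lower in NOD. Of its 57 genes 49 had a usable probe set and 48 were tested. Of these, 21 were lower (43.8%, against 3.18% of all tested genes) and none was higher. The share lower was larger for the NK cell (53.3%) and red pulp macrophage (46.2%) markers. The median difference was -0.466, against -0.0015 for all tested genes. For 41 of the 48 every NOD array lay below every B6 array, and for 1 gene every NOD array lay above. The same separation was found for 23.5% of all tested genes. Promoter sequence of the lower genes is shown because the interferon response acts through a short element, here searched as GAAANNGAAA on both strands, whose reverse complement is TTTCNNTTTC. Windows of 30 bases, all written on the strand of the gene, hold the match in capitals and 10 bases on each side in lower case, from RefSeq promoters of build GRCm38.p6 that span 250 bases before to 50 bases after a start site.
Eif2ak2: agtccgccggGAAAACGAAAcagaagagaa
Trim30d: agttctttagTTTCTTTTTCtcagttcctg
Trim30a: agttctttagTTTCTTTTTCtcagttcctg
Ifit3: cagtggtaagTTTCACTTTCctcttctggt
Ifit1: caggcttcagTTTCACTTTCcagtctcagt
Oas3: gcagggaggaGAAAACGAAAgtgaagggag
Oas1a: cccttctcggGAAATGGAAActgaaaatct
Slfn5: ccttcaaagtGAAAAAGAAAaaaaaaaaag
The windows lie at chr17:78882535-78882564 (- strand), chr7:104507871-104507900 (- strand), chr7:104465210-104465239 (- strand), chr19:34583363-34583392 (+ strand) and chr19:34640775-34640804 (+ strand). Those of the remaining genes lie at chr5:120777715-120777744 (- strand), chr5:120907526-120907555 (- strand) and chr11:82951937-82951966 (+ strand). The motif's first base lay at -41 from the start site in Trim30d and at -36 in Trim30a, whose windows are identical. It lay at 18, after the start site, in Eif2ak2, -156 in Ifit3, -104 in Ifit1, -75 in Oas3, -20 in Oas1a and -155 in Slfn5, and the promoters of Ifit3, Ifit1 and Oas1a held 2 matches each, of which 1 is shown. The motif was found in the promoters of 8 of 14 lower interferon-stimulated genes with a listed promoter (57.1%) and of 9 of 22 that were not called (40.9%). It was found for 38 of all 277 lower genes with a promoter (13.7%), for 8 of 219 higher genes (3.65%) and for 348 of 9006 tested genes (3.86%). Of all 32851 RefSeq promoters, 1131 held it (3.44%). A match describes these letters and is not a shown binding site.

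Sensors of double-stranded RNA and their effectors were among the lower interferon genes. Oasl2, an oligoadenylate synthetase-like protein, stood at 7.04, 6.88 and 7.20 on the NOD arrays, against 8.16, 8.35 and 8.06 on the B6 arrays (-1.15 ± 0.16, adjusted p = 2.54e-05). Eif2ak2, the RNA-activated kinase PKR, stood at 6.35, 6.41 and 6.63 on the NOD arrays, against 7.55, 7.46 and 7.41 on the B6 arrays (-1.0 ± 0.13, adjusted p = 1.08e-05). The oligoadenylate synthetases Oas2 (-0.86 ± 0.18, adjusted p = 0.00299), Oas3 (-0.68 ± 0.17, adjusted p = 0.0175) and Oas1a (-0.66 ± 0.17, adjusted p = 0.0236), which activate the ribonuclease RNase L, were lower with no overlap of the arrays. Dhx58, the helicase LGP2 that regulates RNA sensing, was lower by less (-0.46 ± 0.13, adjusted p = 0.0352). Zbp1, a sensor of Z-form nucleic acid, was lower too (-0.67 ± 0.15, adjusted p = 0.00484). Oas3 lost its call without NOD replicate 1 or 2 or B6 replicate 1 or 2 (adjusted p up to 0.102), and Oas1a without NOD replicate 2 or 3 or B6 replicate 1 or 2 (adjusted p up to 0.152). Dhx58 lost its call without NOD replicate 1, 2 or 3 or B6 replicate 1 or 2 (adjusted p up to 0.129), and Zbp1 without B6 replicate 1 (adjusted p = 0.0512). Effectors that bind viral RNA or viral particles moved the same way. Ifit3 stood at 8.38, 8.24 and 8.02 on the NOD arrays, against 8.99, 9.60 and 8.91 on the B6 arrays (-0.95 ± 0.25, adjusted p = 0.0211), Ifit1 differed by -0.82 ± 0.23 (adjusted p = 0.0336) and Mx1, an antiviral GTPase, by -0.82 ± 0.20 (adjusted p = 0.0144). Ifit3 lost its call without NOD replicate 2 or 3 or B6 replicate 2 (adjusted p up to 0.149), and Ifit1 without any 1 of the 6 arrays (adjusted p up to 0.166). Mx1 lost its call without NOD replicate 2 or B6 replicate 1 (adjusted p up to 0.115). Without NOD replicate 2 or B6 replicate 1 the list held 13 lower genes, and without B6 replicate 2 it held 14, and the median stayed between -0.485 and -0.421 over the 6 fits with 1 array left out.

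Irf7, the transcription factor that amplifies interferon production, stood at 8.03, 7.84 and 8.31 on the NOD arrays, against 9.20, 9.22 and 8.78 on the B6 arrays (-1.01 ± 0.14, adjusted p = 2.73e-05), so that the highest NOD array still lay below the lowest B6 array. Ly6e, a membrane protein with a role in viral entry, had the largest difference of the list. It stood at 9.87, 10.38 and 11.35 on the NOD arrays, against 12.49, 12.48 and 12.51 on the B6 arrays (-1.96 ± 0.19, adjusted p = 1.89e-07), spread over more than 1 unit in NOD and nearly constant in B6. Ifi27l2a, a small mitochondrial protein, stood at 10.11, 10.68 and 11.17 on the NOD arrays, against 11.84, 12.03 and 11.51 on the B6 arrays (-1.14 ± 0.23, adjusted p = 0.00296). The ubiquitin ligase genes Trim30d (-1.01 ± 0.12, adjusted p = 2.39e-06) and Trim30a (-0.57 ± 0.08, adjusted p = 3.96e-05), the Schlafen gene Slfn5 (-0.85 ± 0.14, adjusted p = 0.00019) and the apoptosis-related Xaf1 (-0.71 ± 0.15, adjusted p = 0.00347) were lower as well. Trim30a and Trim30d are close relatives, and their probes may share targets. The remaining lower members were the receptor-transporting protein gene Rtp4 (-1.01 ± 0.24, adjusted p = 0.0101), Phf11d (-0.69 ± 0.17, adjusted p = 0.0128), Epsti1 (-0.48 ± 0.12, adjusted p = 0.0138) and the nuclear body gene Sp100 (-0.40 ± 0.09, adjusted p = 0.01). Rtp4 lost its call without NOD replicate 2 or B6 replicate 2 (adjusted p up to 0.0763), and Phf11d without NOD replicate 1 or B6 replicate 1 or 2 (adjusted p up to 0.124). Epsti1 lost its call without NOD replicate 1 or 2 or B6 replicate 1 or 3 (adjusted p up to 0.0784), and Sp100 without NOD replicate 1 (adjusted p = 0.0904). Of the members that were not called, Ifitm3, which blocks viral fusion, stood at 11.98, 11.99 and 11.97 in NOD and 12.15, 12.19 and 12.05 in B6 cells (adjusted p = 0.152), and Samhd1, a nucleotide hydrolase, at 11.56, 11.58 and 11.58 in NOD and 11.48, 11.46 and 11.48 in B6 cells (adjusted p = 0.498), the one gene whose NOD arrays all lay above the B6 arrays. Called members beyond the 5 largest of the list, where no other part of the naming rule took them, were named after their values were seen.

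**Figure D3:**
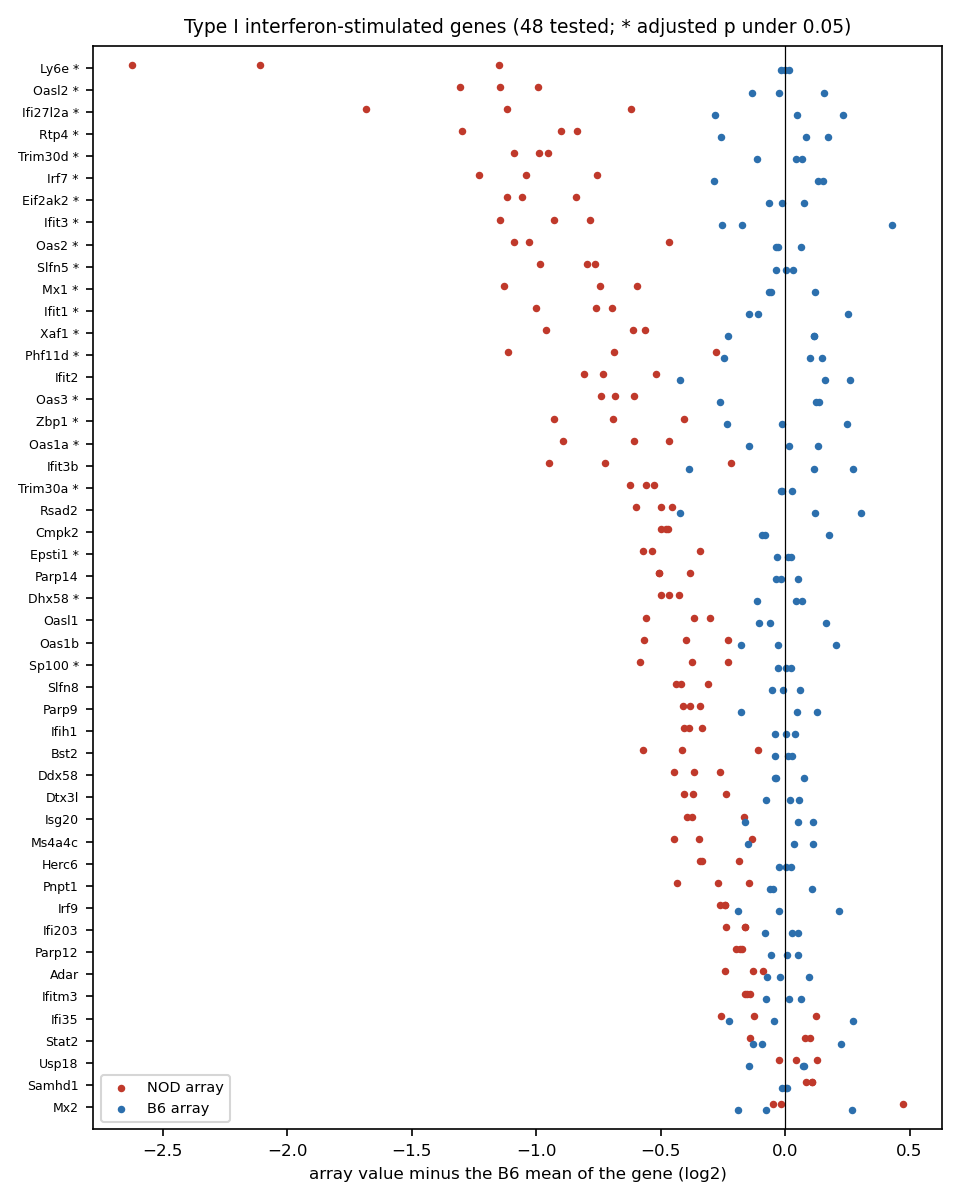
Log2 value of each array minus the B6 mean of the gene, for the 48 tested interferon-stimulated genes ordered by strain difference, with 3 NOD arrays in red and 3 B6 arrays in blue. Asterisks mark the 21 genes with an adjusted p under 0.05, and for 41 genes all red points lie left of all blue points, with Ly6e (-1.96) furthest to the left.

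Genes of the Ifi200 family, whose proteins bind DNA in the nucleus or cytosol, went both ways. Of 10 tested, 2 were higher and 4 lower in NOD (60% called, against 5.59% of all tested genes), a split that did not change when any array was left out. Ifi202b, a member that B6 mice are known to express weakly, stood at 5.35, 5.14 and 5.29 on the NOD arrays, against 3.24, 3.26 and 3.41 on the B6 arrays (1.95 ± 0.23, adjusted p = 2.63e-06). It lay below the array median on all 6 of these arrays and was tested only because it exceeded the median in other groups. Ifi205 was higher by 0.75 ± 0.15 (adjusted p = 0.00262). Ifi206 stood at 4.19, 4.78 and 5.24 on the NOD arrays, against 6.60, 7.26 and 6.76 on the B6 arrays (-2.14 ± 0.29, adjusted p = 2.44e-05), and Ifi213 at 6.27, 5.13 and 5.81 on the NOD arrays, against 7.98, 7.95 and 7.52 on the B6 arrays (-2.08 ± 0.30, adjusted p = 4.48e-05). Ifi207 (-1.22 ± 0.13, adjusted p = 6.44e-07) and Ifi209 (-0.92 ± 0.12, adjusted p = 1.09e-05) were lower by less, and no gene of the 6 overlapped between strains. These genes are near-identical in part, so the assignment of probes to one of them is uncertain, and strain differences in the sequence under a probe were not tested. Of 11 interferon-inducible GTPases 2 were higher and none was lower (18.2% called, against 5.59% of all tested genes). These were the guanylate-binding proteins Gbp2b (0.69 ± 0.20, adjusted p = 0.0421) and Gbp3 (0.65 ± 0.17, adjusted p = 0.0255). Gbp2b lost its call without NOD replicate 1, 2 or 3 or B6 replicate 2 or 3 (adjusted p up to 0.164), and Gbp3 without NOD replicate 2 or 3 or B6 replicate 2 or 3 (adjusted p up to 0.154). A separate list of Toll-like receptors and nucleic acid sensing genes holds none of Dhx58, Zbp1, Eif2ak2 and the Ifi200 genes, and none of its 31 tested members was called, with a median of -0.005, and Tlr9, the receptor for CpG DNA, stood at 9.81, 9.59 and 9.86 in NOD and 9.73, 9.69 and 9.85 in B6 cells.

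St6galnac2 and Cmah were both among the 25 highest genes in NOD. St6galnac2, a transferase that adds sialic acid to O-linked glycans, stood at 10.17, 9.93 and 9.97 on the NOD arrays, against 6.21, 6.71 and 6.31 on the B6 arrays (3.61 ± 0.19, adjusted p = 2.78e-12). Cmah, the hydroxylase that makes the glycolyl form of sialic acid, stood at 8.28, 8.41 and 8.42 on the NOD arrays, against 5.10, 5.47 and 5.28 on the B6 arrays (3.08 ± 0.27, adjusted p = 4.27e-08). Outside those 25, Npl, the lyase that degrades sialic acid, stood at 8.20, 8.65 and 8.24 on the NOD arrays, against 7.20, 7.46 and 6.76 on the B6 arrays (1.22 ± 0.19, adjusted p = 0.000112), and the related transferase gene St6galnac1 was higher by 1.03 ± 0.21 (adjusted p = 0.00293). No array of one strain fell within the range of the other for these 4 genes. St6galnac1 and St6galnac2 are neighbours on the chromosome. The 4 were put together after their values were seen, and no list of such genes was counted.

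Receptors and secreted proteins were also among the highest. Trem1, an activating receptor of myeloid cells that amplifies inflammation, stood at 6.91, 7.41 and 7.70 on the NOD arrays, against 4.17, 4.98 and 4.59 on the B6 arrays (2.76 ± 0.23, adjusted p = 1.15e-08). Klra17, the receptor Ly49Q of the Ly49 family, stood at 9.86, 10.14 and 9.92 on the NOD arrays, against 6.98, 6.74 and 6.67 on the B6 arrays (3.18 ± 0.26, adjusted p = 1.15e-08), with probes that other Klra genes may share. Gp2, a glycoprotein known from the pancreas and from M cells of the gut, stood at 7.11, 8.18 and 7.81 on the NOD arrays, against 4.70, 5.02 and 5.02 on the B6 arrays (2.79 ± 0.29, adjusted p = 3.98e-07). All NOD arrays lay more than 1 unit above all B6 arrays for these 3. Adamdec1, a metalloprotease of dendritic cells and macrophages, stood at 9.23, 9.40 and 9.19 on the NOD arrays, against 6.44, 7.63 and 6.60 on the B6 arrays (2.38 ± 0.26, adjusted p = 9.82e-07), where replicate 2 of B6 was the highest B6 array. Mmp12, the macrophage elastase, was higher (0.94 ± 0.19, adjusted p = 0.00323), as were the membrane protein gene Ms4a6d (1.88 ± 0.22, adjusted p = 2.66e-06) and Cdh17, a cadherin (1.81 ± 0.20, adjusted p = 1.77e-06). Also among the highest were Rgs16, a regulator of G protein signalling (1.94 ± 0.19, adjusted p = 1.69e-07), and Hebp1, a haem-binding protein (2.24 ± 0.22, adjusted p = 1.89e-07).

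Other genes in the top 25 have known roles outside immune cells or none given here. Vsx1, a homeobox factor of the retina, stood at 8.20, 8.28 and 8.08 on the NOD arrays, against 5.03, 5.30 and 5.27 on the B6 arrays (2.99 ± 0.16, adjusted p = 2.91e-12). Zfp979, a zinc finger gene, stood at 6.62, 6.74 and 6.45 on the NOD arrays, against 3.44, 3.0 and 3.66 on the B6 arrays (3.24 ± 0.21, adjusted p = 2.45e-10). Both were above 6 on every NOD array and below 6 on every B6 array. Lypd1, a Ly6-domain protein, was higher by 2.12 ± 0.17 (adjusted p = 5.15e-09), Nxpe5 by 2.35 ± 0.22 (adjusted p = 9.73e-08) and the odorant receptor genes Olfr433 and Olfr432 by 2.82 ± 0.23 (adjusted p = 1.15e-08) and 1.94 ± 0.17 (adjusted p = 3.32e-08). Odorant receptors form a large family of like sequences, and the assignment of these probes is uncertain.

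Among the lowest genes in NOD, Hpgd, the dehydrogenase that inactivates prostaglandins, stood at 6.05, 6.56 and 6.11 on the NOD arrays, against 9.44, 9.59 and 9.36 on the B6 arrays (-3.23 ± 0.22, adjusted p = 3.47e-10). In the same pathway list 20 genes were tested and 10% were called, against 5.59% of all tested genes. The only other call was Pla2g7, the phospholipase that degrades platelet-activating factor. Pla2g7 was higher at 10.02, 10.32 and 9.90 on the NOD arrays, against 8.64, 8.68 and 8.29 on the B6 arrays (1.54 ± 0.25, adjusted p = 0.000272). Both calls held with any array left out, and neither gene's arrays overlapped. Ptger4, a prostaglandin E2 receptor, was not called, at 7.92, 7.82 and 7.58 in NOD and 8.32, 8.35 and 8.27 in B6 cells (adjusted p = 0.112). Its arrays did not overlap, and it was called lower in 5 of 20 other settings of the processing or the arrays. The difference was -0.61 to -0.44 over the 20.

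Scn3a, a voltage-gated sodium channel, stood at 4.18, 4.18 and 4.18 on the NOD arrays, against 7.49, 7.53 and 7.54 on the B6 arrays (-3.34 ± 0.13, adjusted p = 1.81e-14). Spint1, an inhibitor of serine proteases, stood at 5.74, 5.75 and 5.69 on the NOD arrays, against 9.26, 9.02 and 8.99 on the B6 arrays (-3.36 ± 0.18, adjusted p = 4.84e-12). D17H6S56E-5, a transcript of unstated function, stood at 5.73, 5.75 and 6.30 on the NOD arrays, against 9.46, 9.16 and 9.34 on the B6 arrays (-3.40 ± 0.20, adjusted p = 2.17e-11). The strains were more than 2 units apart on every pair of arrays for these genes. Apobec3, a cytidine deaminase that restricts retroviruses, stood at 8.48, 8.42 and 8.52 on the NOD arrays, against 10.83, 10.72 and 10.82 on the B6 arrays (-2.32 ± 0.11, adjusted p = 3.84e-13). Apoe, a lipid carrier that macrophages and dendritic cells secrete, stood at 8.17, 8.24 and 8.22 on the NOD arrays, against 10.31, 10.76 and 10.35 on the B6 arrays (-2.26 ± 0.18, adjusted p = 9.64e-09), and Ckb, the brain form of creatine kinase, at 7.59, 7.40 and 7.85 on the NOD arrays, against 10.34, 10.31 and 10.35 on the B6 arrays (-2.72 ± 0.19, adjusted p = 8.19e-10). NOD arrays lay below 9 for all 3 genes and B6 arrays above 10. Also lower were Frmd4b (-1.96 ± 0.16, adjusted p = 1.3e-08), Nxpe4 (-2.33 ± 0.13, adjusted p = 1.34e-11), the Ly6 family gene Ly6i (-1.88 ± 0.24, adjusted p = 8.76e-06) and Klra2 of the Ly49 family (-1.90 ± 0.35, adjusted p = 0.000928). Klra2 was highest in replicate 2 of B6, as were Nkg7, Gzma and Ncr1, and the part of NK cell transcripts in its difference was not tested. Apoe was highest in the same array, as were the macrophage genes Vcam1, Hmox1 and Cd5l, and the part of macrophage transcripts was not tested either. The respiratory chain subunit gene Ndufs5 was lower, at 6.88, 8.44 and 7.80 on the NOD arrays, against 9.93, 9.70 and 9.02 on the B6 arrays (-1.84 ± 0.33, adjusted p = 0.000679).

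Of 628 called genes placed on the RefSeq annotation of GRCm38.p6, 140 had a called gene as their nearest tested neighbour on at least 1 side (22.3%), against 1182 of all 11220 placed and tested genes (10.5%). These 140 include the 44 genes of 11 runs of at least 3 neighbouring tested genes that were called throughout. A run of 6 genes was higher in NOD throughout, made of Snhg16, St6galnac2, BC018473, St6galnac1, Mxra7 and Jmjd6, with differences of 1.16, 3.61, 5.06, 1.03, 0.99 and 0.45. BC018473 and St6galnac2, both near the top of the whole table, are thus neighbours. Another run of 6 held histone genes that were all lower, with H2bc8 at 7.53, 8.05 and 7.18 on the NOD arrays, against 10.62, 11.12 and 10.74 on the B6 arrays (-3.24 ± 0.21, adjusted p = 2.45e-10). H2bc4 stood at 4.14, 5.89 and 5.53 on the NOD arrays, against 8.05, 8.52 and 8.19 on the B6 arrays (-3.07 ± 0.40, adjusted p = 1.44e-05), H3c4 differed by -1.84 ± 0.24, H1f3 by -0.98 ± 0.18, H4c6 by -0.78 ± 0.23 and H4c4 by -0.59 ± 0.14. Histone genes are near-identical within a class, so these calls may share targets. Jmjd6 lost its call without any 1 of the 6 arrays (adjusted p up to 0.149), and H4c6 without NOD replicate 1, 2 or 3 or B6 replicate 1 or 2 (adjusted p up to 0.248). H4c4 lost its call without NOD replicate 1 or B6 replicate 1 (adjusted p up to 0.079).

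**Figure D4:**
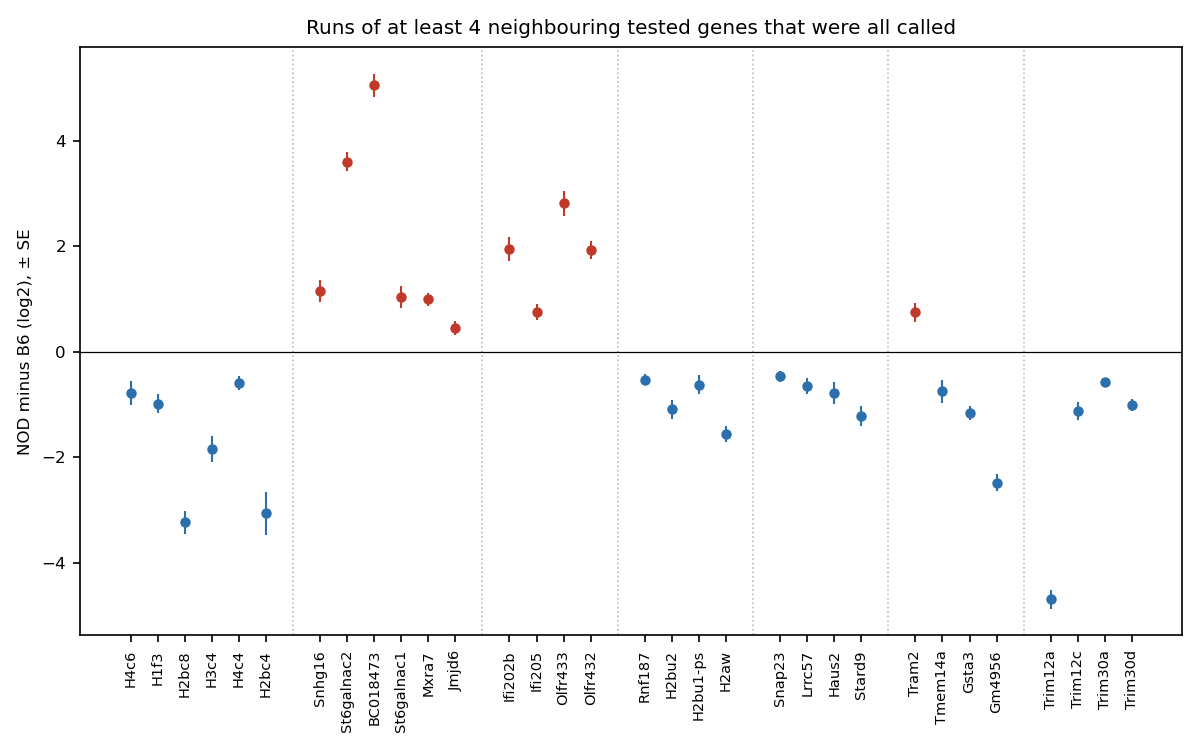
Strain difference (NOD minus B6, log2) ± standard error for each gene of the 7 runs of at least 4 neighbouring tested genes that were all called, with red for higher and blue for lower in NOD and dotted lines between runs. The run around BC018473 is higher throughout, with the highest value of 5.06, and the histone and Trim12 to Trim30 runs are lower throughout.

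Other runs joined genes described above. Trim12a, Trim12c, Trim30a and Trim30d were neighbours and all lower, with Trim12c, named after its values were seen, at 6.77, 6.63 and 7.19 on the NOD arrays, against 7.89, 7.85 and 8.23 on the B6 arrays (-1.12 ± 0.17, adjusted p = 0.000106). Ifi202b, Ifi205, Olfr433 and Olfr432 were neighbours and all higher. The inflammasome sensors of the NLRP1 cluster differed in direction, with Nlrp1a higher at 7.51, 7.63 and 7.60 on the NOD arrays, against 6.65, 6.59 and 6.63 on the B6 arrays (0.96 ± 0.19, adjusted p = 0.00204). Nlrp1b, which senses anthrax lethal toxin, was lower at 4.89, 5.14 and 4.95 on the NOD arrays, against 6.39, 6.05 and 6.25 on the B6 arrays (-1.23 ± 0.14, adjusted p = 2.88e-06), and the pseudogene Nlrp1c-ps at 5.41, 5.20 and 5.24 on the NOD arrays, against 7.69, 7.91 and 7.76 on the B6 arrays (-2.50 ± 0.14, adjusted p = 9.41e-12). No array overlapped between strains in this cluster, and its members' likeness makes the probe assignment uncertain. Gsta3, a glutathione transferase, was lower at 5.26, 5.14 and 5.19 on the NOD arrays, against 6.60, 6.12 and 6.36 on the B6 arrays (-1.17 ± 0.13, adjusted p = 2.05e-06) beside Gm4956 (-2.48 ± 0.17, adjusted p = 3.79e-10) and Tmem14a (-0.74 ± 0.22, adjusted p = 0.0462), and next to Tram2, which was higher (0.75 ± 0.18, adjusted p = 0.0141). A run of Snap23, Lrrc57, Haus2 and Stard9 was lower throughout, with differences of -0.47, -0.65, -0.78 and -1.22, and so was a run of Rnf187 with the histone genes H2bu2, H2bu1-ps and H2aw, with differences of -0.53, -1.09, -0.62 and -1.56. Tmem14a lost its call without NOD replicate 1 or 2 or B6 replicate 1, 2 or 3 (adjusted p up to 0.308), and Tram2 without NOD replicate 1 or 3 or B6 replicate 1 or 2 (adjusted p up to 0.0702). Snap23 lost its call without B6 replicate 1 (adjusted p = 0.0581), and Lrrc57 without NOD replicate 3 or B6 replicate 3 (adjusted p up to 0.0746). Haus2 lost its call without NOD replicate 1 or 2 or B6 replicate 1 or 2 (adjusted p up to 0.162), and H2bu1-ps without NOD replicate 1 or 3 or B6 replicate 1 or 2 (adjusted p up to 0.184).

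Most genes of class II antigen presentation were not called. Of 17 tested, 2 were lower and none was higher (11.8% called, against 5.59% of all tested genes). H2-Aa, the alpha chain of I-A, stood at 11.96, 12.02 and 11.79 on the NOD arrays, against 12.34, 12.17 and 12.22 on the B6 arrays (-0.32 ± 0.07, adjusted p = 0.00645). H2-Ab1, its beta chain, whose NOD allele is a main diabetes susceptibility gene, stood at 12.18, 12.27 and 12.04 on the NOD arrays, against 12.51, 12.37 and 12.41 on the B6 arrays (-0.27 ± 0.07, adjusted p = 0.0261). The arrays did not overlap, and the alleles of the strains differ in sequence, which was not tested under these probes. H2-Aa lost its call without NOD replicate 3 or B6 replicate 1 (adjusted p up to 0.0599), and H2-Ab1 without NOD replicate 1 or 3 or B6 replicate 1 or 3 (adjusted p up to 0.17). H2-Eb1, the beta chain of I-E, was not called (-0.11 ± 0.07, adjusted p = 0.598), nor was the invariant chain Cd74 (0.09 ± 0.04, adjusted p = 0.354). Of 10 tested class I genes 1 was higher and 2 were lower (30% called, against 5.59% of all tested genes). H2-Q5 (-1.03 ± 0.12, adjusted p = 2.46e-06) and H2-K2 (-0.90 ± 0.13, adjusted p = 6.35e-05) were lower. H2-M2 was higher at 10.05, 9.87 and 9.71 on the NOD arrays, against 8.71, 8.44 and 9.03 on the B6 arrays (1.15 ± 0.20, adjusted p = 0.000641). B2m, the light chain of class I molecules, was not called, at 12.57, 12.69 and 12.63 in NOD and 12.56, 12.61 and 12.55 in B6 cells. Of 15 genes of class I peptide loading only the proteasome activator Psme1 was called (6.67%, near the share of all tested genes). It was lower by a small difference (-0.30 ± 0.07, adjusted p = 0.00783). Psme1 lost its call without NOD replicate 2 or B6 replicate 1 (adjusted p up to 0.0742).

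Of 9 tested Fc receptors 3 were lower and none was higher in NOD (33.3% called, against 5.59% of all tested genes). Fcgr3, an activating receptor for IgG, stood at 6.16, 5.67 and 6.18 on the NOD arrays, against 6.83, 7.27 and 6.64 on the B6 arrays (-0.91 ± 0.21, adjusted p = 0.00836). Fcgr2b, the inhibitory receptor for IgG, stood at 6.0, 6.57 and 6.80 on the NOD arrays, against 7.43, 7.19 and 7.12 on the B6 arrays (-0.79 ± 0.23, adjusted p = 0.0417), and Trim21, the cytosolic antibody receptor, differed by -0.58 ± 0.14 (adjusted p = 0.0117). The strains did not overlap for these 3, but 1 call was left without NOD replicate 1 or 2 or B6 replicate 1 or 2. Macrophages carry these receptors too, and the part of the macrophage transcripts described above was not tested. Fcgr3 lost its call without NOD replicate 2 or B6 replicate 2 (adjusted p up to 0.0748), and Fcgr2b without NOD replicate 1 or 2 or B6 replicate 1, 2 or 3 (adjusted p up to 0.267). Trim21 lost its call without NOD replicate 1 or B6 replicate 1 (adjusted p up to 0.0903). C-type lectin receptors had 6 lower and 1 higher member of 28 tested (25% called). Beside Clec12a and Clec9a, Clec2i stood at 7.75, 7.94 and 8.0 on the NOD arrays, against 9.35, 9.20 and 9.16 on the B6 arrays (-1.34 ± 0.20, adjusted p = 8.2e-05), and Klri1, an NK-type receptor, at 8.66, 8.69 and 8.56 on the NOD arrays, against 9.70, 9.88 and 9.68 on the B6 arrays (-1.12 ± 0.14, adjusted p = 1.05e-05). Klrb1b was the higher one (0.88 ± 0.24, adjusted p = 0.031). Klrb1b lost its call without NOD replicate 1, 2 or 3 or B6 replicate 1 or 3 (adjusted p up to 0.202). In 31 tested paired receptors (9.68% called) Trem1 was higher and 2 were lower, among them the myeloid receptor Cd300c (-0.81 ± 0.13, adjusted p = 0.000242). Whichever array was left out, 1 lower gene remained in this list.

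Genes of dendritic cell maturation and of T cell help went both ways. Of 27 tested maturation genes 1 was higher and 3 were lower (14.8% called, against 5.59% of all tested genes). Cd86, a ligand of CD28 on T cells, was higher at 9.70, 9.81 and 9.53 on the NOD arrays, against 9.11, 9.07 and 8.81 on the B6 arrays (0.68 ± 0.13, adjusted p = 0.00121). Il15, a cytokine that sustains NK cells and memory CD8+ T cells, was lower at 5.66, 5.55 and 5.72 on the NOD arrays, against 7.18, 7.07 and 7.12 on the B6 arrays (-1.48 ± 0.20, adjusted p = 2.75e-05). Ccr7, the receptor that guides dendritic cells to lymph nodes, was lower at 8.99, 8.82 and 9.09 on the NOD arrays, against 9.96, 9.81 and 9.61 on the B6 arrays (-0.83 ± 0.19, adjusted p = 0.0101), and Cd83, a maturation marker, by a smaller difference (-0.44 ± 0.10, adjusted p = 0.00851). None of these 4 overlapped between strains. Ccr7 lost its call without NOD replicate 2 or B6 replicate 1 (adjusted p up to 0.0659), and Cd83 without B6 replicate 1 (adjusted p = 0.0535). Il12b, a subunit of interleukin-12, was not called here (-0.38 ± 0.17, adjusted p = 0.262), nor was Il1b, at 9.92, 10.30 and 9.89 in NOD and 10.06, 10.22 and 10.01 in B6 cells. Of 18 tested chemokines 5 were lower and none was higher (27.8% called), with a median of -0.395, or -0.479 to -0.243 with 1 array left out. Cxcl16, which attracts activated T cells, stood at 8.31, 7.74 and 8.13 on the NOD arrays, against 9.10, 8.62 and 8.63 on the B6 arrays (-0.72 ± 0.15, adjusted p = 0.00361). Ccl22, a ligand of CCR4 on regulatory T cells, differed by -0.86 ± 0.19 (adjusted p = 0.00543) and Ccl4 by -1.20 ± 0.32 (adjusted p = 0.0255), beside the Xcl1 and Ccl5 of the NK cell list. The count was 4 to 6 when 1 array was left out. Ccl22 lost its call without B6 replicate 1 (adjusted p = 0.0611), and Ccl4 without NOD replicate 1 or 3 or B6 replicate 2 (adjusted p up to 0.195).

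Of 42 tested cytokine and growth factor receptor and JAK-STAT genes 2 were higher and 4 lower (14.3% called, against 5.59% of all tested genes). Csf2rb, the common beta chain of the receptors for GM-CSF, interleukin-3 and interleukin-5, stood at 9.07, 9.0 and 9.19 on the NOD arrays, against 10.05, 9.73 and 9.94 on the B6 arrays (-0.82 ± 0.13, adjusted p = 0.000219). Csf2rb2, its mouse paralogue for interleukin-3, stood at 7.73, 7.60 and 7.70 on the NOD arrays, against 8.60, 8.37 and 8.69 on the B6 arrays (-0.87 ± 0.15, adjusted p = 0.000347), and both calls held with any array left out. The 2 genes are alike in sequence, so their probes may share targets. Tgfbr1, the signalling receptor for TGF-beta, was higher (0.51 ± 0.12, adjusted p = 0.00867) and was named after its values were seen. Of 46 tested dendritic cell transcription factors 4 were lower and none was higher (8.7% called). Etv3, a repressor, stood at 9.66, 9.23 and 9.55 on the NOD arrays, against 10.37, 10.09 and 10.31 on the B6 arrays (-0.78 ± 0.16, adjusted p = 0.00355). Bcl6 (-0.49 ± 0.12, adjusted p = 0.0124), Id2 (-0.38 ± 0.10, adjusted p = 0.0336) and Etv6 (-0.37 ± 0.08, adjusted p = 0.00917) differed by less, and only 1 of the 4 was called without NOD replicate 2 or B6 replicate 1. Bcl6 lost its call without NOD replicate 2 or B6 replicate 1 or 3 (adjusted p up to 0.108), and Id2 without NOD replicate 1, 2 or 3 or B6 replicate 1 or 2 (adjusted p up to 0.181). Etv6 lost its call without NOD replicate 2 or B6 replicate 1 or 3 (adjusted p up to 0.0675). Zbtb32, a repressor induced by activation, was not called, at 6.29, 6.41 and 7.13 in NOD and 6.43, 6.29 and 6.49 in B6 cells.

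Genes of redox defence were lower where they were called. Of 32 tested, 5 were lower and none was higher (15.6% called, against 5.59% of all tested genes). Gsr, glutathione reductase, stood at 7.44, 7.58 and 7.43 on the NOD arrays, against 8.39, 8.31 and 8.30 on the B6 arrays (-0.85 ± 0.14, adjusted p = 0.000198). Sod1, the cytosolic superoxide dismutase, stood at 11.17, 10.95 and 11.13 on the NOD arrays, against 11.39, 11.47 and 11.47 on the B6 arrays (-0.36 ± 0.07, adjusted p = 0.00115), and Prdx2, a peroxiredoxin, differed by -0.67 ± 0.20 (adjusted p = 0.0438). Gsta3 and Hmox1, given above, were the other 2. Prdx2 lost its call without NOD replicate 1 or 2 or B6 replicate 1, 2 or 3 (adjusted p up to 0.194). Cell cycle genes had 5 lower members and no higher one of 39 (12.8% called), with a median of -0.349. Bub1b, a kinase of the spindle checkpoint, stood at 5.51, 5.56 and 5.78 on the NOD arrays, against 7.20, 7.05 and 7.32 on the B6 arrays (-1.57 ± 0.18, adjusted p = 2.11e-06). Gins1, a subunit of the replicative helicase, differed by -1.01 ± 0.22 (adjusted p = 0.00564), the kinesin gene Kif11 by -0.99 ± 0.20 (adjusted p = 0.00262) and the mitotic kinase gene Plk1 by -0.71 ± 0.21 (adjusted p = 0.044). The list held 3 lower genes without NOD replicate 1 or B6 replicate 1. Plk1 lost its call without NOD replicate 1 or 2 or B6 replicate 1 or 3 (adjusted p up to 0.291).

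None of 32 listed oxidative phosphorylation genes was called, a list that does not hold Ndufs5. Of 21 cytosolic ribosomal protein genes 2 were called, 9.52% against 5.59% of all tested genes. Those 2 were Rplp1 at 12.70, 12.64 and 12.74 in NOD and 13.08, 13.09 and 12.99 in B6 cells (-0.36 ± 0.04, adjusted p = 6.41e-06) and Rps19 (-0.54 ± 0.10, adjusted p = 0.0011), and both were lower. Of 18 tested glycolysis genes 1 was called (5.56%) and of 20 cholesterol synthesis genes 1 (5%), both near the share of all tested genes. These were Pfkp, a phosphofructokinase (-1.02 ± 0.16, adjusted p = 0.000216), and Idi1, an isomerase of isoprenoids (-0.73 ± 0.14, adjusted p = 0.00228). Of 28 lysosomal genes 3 were called (10.7%), and among them the lysosomal activator protein gene Psap was lower (-0.38 ± 0.08, adjusted p = 0.00306). Of 21 unfolded protein response genes 1 was called (4.76%). Edem1, which removes misfolded glycoproteins from the endoplasmic reticulum, was higher (0.55 ± 0.12, adjusted p = 0.00357). None of 7 Gimap GTPase genes, which are lymphocyte survival factors, was called, with a median of 0.068 that ranged over -0.265 to 0.306 with 1 array left out. Among complement genes Cd93, a receptor of myeloid and endothelial cells, was higher at 6.98, 6.72 and 6.86 on the NOD arrays, against 5.82, 5.81 and 5.89 on the B6 arrays (1.01 ± 0.15, adjusted p = 7.62e-05), beside Cr2 and the lower C1qa.

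Of 39 candidate genes of the mapped NOD diabetes regions 34 had a usable probe set and 26 were tested. Of these, 2 were higher and 2 lower (15.4% called, against 5.59% of all tested genes). Ifi202b, H2-Ab1 and Fcgr2b were described above. Cd101, an inhibitory receptor of the immunoglobulin family, stood at 6.66, 7.24 and 6.95 on the NOD arrays, against 6.43, 6.42 and 6.41 on the B6 arrays (0.53 ± 0.15, adjusted p = 0.0358). Cd101 lost its call without NOD replicate 2 or 3 or B6 replicate 1, 2 or 3 (adjusted p up to 0.262). Hc, the complement component C5 gene, was below the filter and not tested, and H2-K1 was not analysed here. Ifi202b was the only one of the 4 whose call held with any array left out, but it lay below the median on every NOD and B6 array of this comparison.

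The same strain difference was measured in CD8+ cDC under PBS on 6 other arrays. There 407 genes were called (3.62% of those tested), 228 higher (2.03%) and 179 lower (1.59%). Of the 628 genes called in CD11b+ cDC, 201 were called in the same direction in CD8+ cDC, 94 higher and 107 lower. They make up 32% of the CD11b+ calls and 49.4% of the CD8+ calls, and 2 genes were called in opposite directions. Cmah, Trim12a and Spint1 differed by 2.99, -4.24 and -3.08 in CD8+ cDC, against 3.08, -4.69 and -3.36 in CD11b+ cDC. Idi1, the isoprenoid isomerase, differed by -1.47 (adjusted p = 3.54e-07) in CD8+ cDC and by -0.73 in CD11b+ cDC.

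A test of the difference itself, the interaction of subset and strain under PBS, called 99 genes (0.882%), 49 with a higher (0.436%) and 50 with a lower (0.445%) value in CD11b+ cDC. It uses the same 6 CD11b+ arrays as the calls above, and 73 genes passed both tests (11.6% of the 628). Picking genes by a large CD11b+ difference favours passing the interaction, so its values for such genes are not independent support. Scn3a differed by -3.34 in CD11b+ cDC and differed by -0.14 (adjusted p = 0.854) in CD8+ cDC, a difference between the subsets of -3.20 (adjusted p = 9.49e-11). Trem1 differed by 2.76 in CD11b+ and 0.32 in CD8+ cDC (adjusted p = 9.4e-05 for the interaction), and Adamdec1 by 2.38 in CD11b+ and -0.36 in CD8+ cDC (adjusted p = 0.000115). Gbp3 went the other way, with 0.65 in CD11b+ and 2.66 in CD8+ cDC (adjusted p = 3.86e-05). The NK cell gene Nkg7 differed by -2.82 in CD11b+ and by -0.41 in CD8+ cDC (adjusted p = 0.00255), and 0 of 15 NK cell genes were called in CD8+ cDC. Of 48 interferon-stimulated genes 7 were lower and none higher in CD8+ cDC, where 1.59% of all tested genes were lower. The list's median was -0.214, and Ly6e was the only one of the 48 that passed the interaction (-1.63, adjusted p = 0.002). Irf7 differed by -0.64 in CD8+ cDC (adjusted p = 0.00645), without a called difference between subsets (adjusted p = 0.879). B cell markers were called in 6 of 14 cases in CD8+ cDC, all higher in NOD, against 2.03% of all tested genes, with a median of 1.13. The interaction called 63 genes without NOD CD11b+ replicate 2 and 63 without replicate 3 of the B6 CD8+ PBS arrays, where the CD8+ comparison itself called 271.

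**Figure D5:**
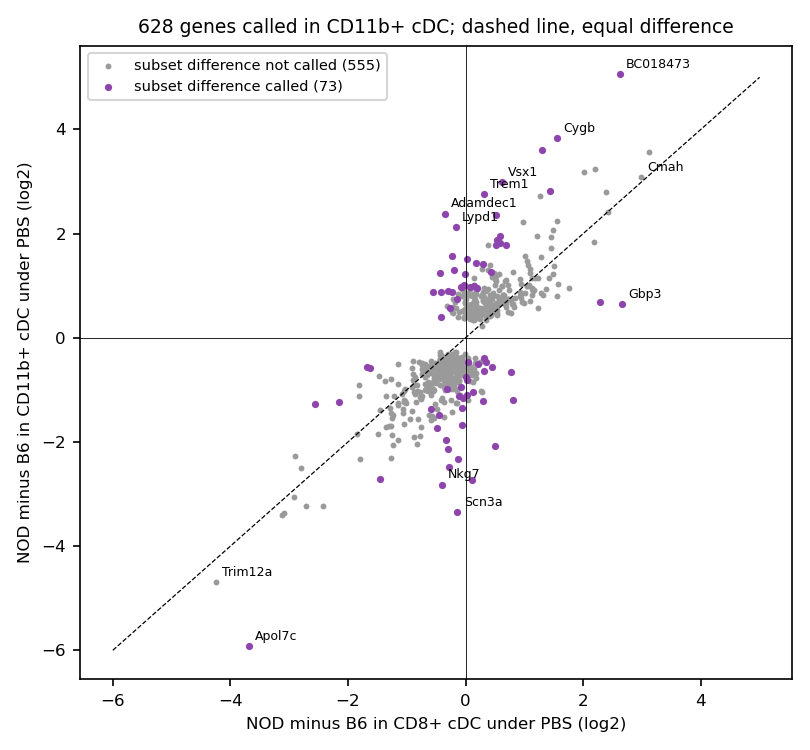
Strain difference (NOD minus B6, log2) in CD11b+ cDC against that in CD8+ cDC, both under PBS, for the 628 genes called in CD11b+ cDC. The 73 genes whose difference between the subsets passed the interaction test are purple, the dashed line marks equal differences, and Scn3a, Trem1 and Nkg7 lie near 0 in CD8+ cDC while Trim12a and Cmah lie close to the line.

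In CD11b+ cDC taken after CpG-A, 2600 genes were called between the strains (23.2%), 1565 higher (13.9%) and 1035 lower (9.22%) in NOD, again on other arrays. Of the 628 resting calls 407 were called in the same direction (64.8% of the resting and 15.7% of the CpG-A calls) and 7 in the opposite one. After CpG-A, Apol7c differed by -6.77, Cygb by 3.77 and Scn3a by -3.52, against -5.92, 3.83 and -3.34 at rest. The change of the strain difference with CpG-A was called for 492 genes (4.38%), 270 with a higher (2.4%) and 222 with a lower (1.98%) value after CpG-A, 86 of them among the 628 whose resting arrays the test shares. Ifi202b differed by 6.24 after CpG-A and 1.95 at rest (adjusted p = 2.06e-08 for the change). Hpgd differed by -1.01 after CpG-A and -3.23 at rest (adjusted p = 0.000122), and Cd86 by -0.43 after CpG-A and 0.68 at rest (adjusted p = 0.000623). Interferon-stimulated genes had 9 lower and 0 higher calls of 48 after CpG-A, with a median of -0.194. Irf7 differed by -0.20 after CpG-A (adjusted p = 0.319), a change of 0.81 from rest (adjusted p = 0.0182), and Oasl2 and Slfn5 changed by 1.02 (adjusted p = 0.00813) and 0.86 (adjusted p = 0.00983). NK cell genes were lower in 13 of 15 cases after CpG-A with a median of -3.56, and Ncr1 differed by -4.32, against -2.04 at rest (adjusted p = 0.00072). The number of genes called for the change was 766 with the replicate number as a block. It was 316 without B6 PBS replicate 1, 314 without B6 CpG-A replicate 1 and 297 without NOD CpG-A replicate 2.

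In CD8+ cDC after CpG-A 2270 genes were called (20.2%), and 237 of the 628 resting CD11b+ calls were among them in the same direction (37.7% of the resting and 10.4% of the other calls), with 23 in the opposite one. This comparison depended on single arrays, with 3945 calls without NOD replicate 1, 1111 without NOD replicate 3, 1468 without B6 replicate 1 and 1452 without B6 replicate 2. A total of 119 genes (1.06%) were called in the same direction in all 4 strain comparisons. In the last comparison Trim12a differed by -4.86, D17H6S56E-5 by -2.61 and H2bc8 by -3.12, and all 3 were in this set. Cmah at 1.93, Apobec3 at -1.33 and Ndufs5 at -1.41 were in it too. Gm14403 differed by 1.72 at rest in CD11b+ cDC and Cdon, a cell surface protein of the immunoglobulin family, by -1.44, and both were among the 119.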

How the data were processed

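The 24 arrays held 8 groups of 3, split by subset, strain and treatment. The values are log2 expression values as deposited in the series' values, which the authors computed by RMA with Partek, in versions not given, per the submitters' processing notes. The labels name a Mouse Genome 430 array, while the probe set identifiers matched a gene annotation of another, whole-transcript array, so the model is unsettled. Symbols came from that annotation, updated by gene ID for 21698 of 21789 probe sets with a single symbol, against 1621 with several and 12146 not listed. The probe set with the highest mean was kept for 999 genes with several. No other per-sample column was present (0).

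From these values limma 3.58.1 in R 4.3.3 (statmod 1.5.0) fitted 8 group means over 24 arrays with 16 residual degrees of freedom, a variance trend and two-sided tests with Benjamini-Hochberg adjustment, for 6 comparisons. Genes above the array median on at least 3 arrays were tested. The fit was tested on simulated data. The number of arrays limits the precision. The gene lists (48) and the comparison were chosen with earlier results of these data known. The text names the 25 highest and 25 lowest called genes without overlap, up to 5 called and 3 uncalled members per list, 10 genes per direction of each interaction, 20 genes called in all 4 comparisons, runs of at least 3 called neighbours and fixed markers, and other genes only where said. Not every gene the rule takes is described. Neighbouring genes were read from the RefSeq annotation of GRCm38.p6 and promoters from its sequence. The replicate numbers of CD8+ NOD and B6 arrays went together, with correlations of their deviations of 0.288, 0.208 and 0.2 under PBS and 0.544, 0.242 and 0.496 after CpG-A, which meets the criterion for pairing. The CD8+ counts printed come from the fit without a block, and with it they were 513 against 407 under PBS and 2780 against 2270 after CpG-A. Same-numbered CD11b+ and CD8+ arrays of a strain under PBS also went together, with correlations of 0.178, 0.105 and 0.151 in NOD and 0.135, 0.277 and 0.14 in B6, and the subset interaction called 134 genes with the block, against 99 without it. NOD arrays of CD11b+ cDC after CpG-A and under PBS did so too (0.215, 0.159 and 0.155), but those of B6 did not (-0.108, 0.092 and 0.139). Alternatives changed the filter, the probe set choice, the normalization, the variance model, the arrays in the fit and the replicate block, and left out each array in turn.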

Additional observations from a re-analysis of the deposited data

Results flagged for a closer look

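The strain difference (NOD minus B6) under PBS differed between CD11b+ and CD8+ cDC for 99 genes (0.882% of those tested) by limma's interaction test, at an adjusted p under 0.05. The values that follow are the CD11b+ difference minus the CD8+ difference on the log2 scale for genes named here. Each of the 4 groups had n = 3 arrays. For genes picked by their CD11b+ difference the value shares its arrays and is not independent support. Among genes highest in NOD CD11b+ cDC the value was 2.74 for Adamdec1, 2.44 for Trem1, 2.43 for BC018473, 2.37 for Vsx1, 2.30 for St6galnac2, 2.29 for Lypd1 and 2.28 for Cygb. It was smaller, at 1.84 for Nxpe5, 1.39 for Olfr433, 1.36 for Rgs16, 1.34 for Ms4a6d, 1.23 for Cdh17 and 1.23 for Npl. Scn3a, a sodium channel gene, had -3.20, and other genes lowest in NOD CD11b+ cDC had -2.23 for Apol7c, -2.20 for Gm4956, -2.20 for Nxpe4, -1.52 for Stard9, -1.27 for Ckb and -1.12 for Gsta3. NK cell transcripts had -2.84 for Gzma, -2.42 for Nkg7, -1.61 for Xcl1 and -0.51 for Ccl5. For lectin-like receptors it was -2.56 for Cd207, -1.28 for Clec2i and -1.01 for Klri1, where Cd207 encodes langerin. For genes of the interferon response and the Ifi200 family it was -2.58 for Ifi213, -1.83 for Ifi206, -2.00 for Gbp3, -1.63 for Ly6e, -1.59 for Gbp2b and 0.89 for Ifi205. Gbp3 differed by 0.65 in CD11b+ and 2.66 in CD8+ cDC. The interleukin-12 subunit gene Il12b had 2.00, with a strain difference of -0.38 in CD11b+ and -2.39 in CD8+ cDC. The remaining values were 1.19 for Retnlg, 1.04 for Cd93, 0.92 for Nlrp1b, -0.84 for Csf2rb, -1.02 for Melk, 1.80 for Zfp872 and 1.80 for Serpina4-ps1.

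Within CD11b+ cDC, the strain difference after CpG-A differed from that under PBS for 492 genes by the same kind of test. That was 4.38% of all tested genes, 2.4% with a positive and 1.98% with a negative value. The values are the CpG-A difference minus the PBS difference. Of 15 NK cell markers 9 passed, all with negative values, against 1.98% of all tested genes. Gzma (-0.40, adjusted p = 0.751 by limma) and Ccl5 (0.11, adjusted p = 0.693) did not pass. Among killer cell transcripts that passed, the value was -3.37 for Ifng, -3.31 for Klrb1c, -3.08 for Gzmb, -3.08 for Prf1, -2.89 for Fasl, -2.49 for Klrc1, -2.28 for Ncr1, -2.08 for Il2rb and -1.34 for Xcl1. Gzmb, granzyme B, differed by -3.74 after CpG-A and -0.66 under PBS. Lymphocyte genes had -3.01 for Thy1, -2.83 for Gimap3, -2.57 for Klrb1b and -1.20 for Il7r. Of 10 Ifi200 genes 4 passed, all with positive values, against 2.4% of all tested genes. The values were 4.29 for Ifi202b, 2.23 for Ifi208, 1.46 for Ifi206 and 0.97 for Ifi207. Other interferon-related genes had 1.65 for Ly6e, 1.23 for Gbp2b, 1.02 for Oasl2, 0.86 for Slfn5, 0.81 for Irf7, -1.12 for Gbp3 and -1.04 for Trim12c. For the CD11b+ and CD8+ cDC markers it was 1.58 for Clec4a4, 1.46 for Clec12a, 1.33 for Clec9a and 0.96 for Itgax. Antigen presentation genes had 1.88 for H2-Ob, 1.73 for H2-M2, 0.48 for H2-Eb1 and 0.40 for H2-Ab1, and the CD28 ligand gene Cd86 had -1.12. Genes of the inflammasome, of prostaglandin and sialic acid breakdown and of matrix breakdown had 1.29 for Nlrp1c-ps, 0.96 for Nlrp1a, 0.79 for Nlrp1b, 2.21 for Hpgd, 1.96 for Npl and 2.36 for Mmp12. For the most negative genes outside these groups it was -4.33 for Csta2, -3.92 for AA467197 and -3.63 for Zfp872. Csta2, a cystatin A gene, differed by -4.52 after CpG-A and -0.20 under PBS. Positive values were also found at 2.82 for Melk, 2.38 for Inpp4b, 2.21 for AY761185, 1.87 for Gpr34, 1.22 for Ckb, 1.18 for Spint1 and 1.17 for Vcam1. The last were 1.10 for Stard9, 1.01 for Bub1b, 1.01 for H2bu2, 0.80 for Csf2rb2, -0.91 for Gm4956, -0.98 for Serpina4-ps1 and -1.26 for Lypd1.

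No cause of either kind of difference was tested. Groups of 3 arrays are too small to test for a single array far from the others.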

How the results depend on the processing

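The count of 628 genes in resting CD11b+ cDC was 490 to 671 with other filters, probe set choices or normalizations, 618 and 631 with other variance models, 838 with the compared groups alone, 914 with the 12 PBS arrays and 1046 (480 higher and 566 lower) with array weights. With 1 array left out it was 424 to 487. Between 411 and 628 of the 628 genes were called in the same direction over these settings, and 1 gene had the opposite sign, where probe sets of a gene were averaged. The replicate numbers did not pair these samples (correlations of -0.1, 0.192 and 0.002), and the fit with replicate number as a block called 808, or 771 as a random block. The replicate block gave 766 for the change with CpG-A, against 492 without it, and moved the other 4 counts by less than 1.5 times. With the compared groups alone the counts were 390 in CD8+ cDC after CpG-A, 181 for the subset interaction and 945 for the change with CpG-A. Leaving out 1 array gave 271 to 336 genes in CD8+ cDC under PBS, 1877 to 2366 in CD11b+ cDC after CpG-A and 1111 to 3945 in CD8+ cDC after CpG-A. It gave 63 to 91 for the subset interaction and 297 to 524 for the change with CpG-A. The cause of these shifts was not tested, other than that fits with fewer arrays hold fewer samples. Of 169 called genes that were followed by name, some of them named after their values were seen, 116 kept their call without any 1 array. With all arrays, 17 lost it under some other filter, normalization, variance model or choice of groups, with a largest adjusted p of 0.0504 to 0.109 by limma, namely Blk, C1qa, Dhx58, Fcgr2b, Gbp2b, Gbp3, H2-Ab1, H2bu1-ps, H4c6, Haus2, Id2, Jmjd6, Mrc1, Plk1, Prdx2, S100a9 and Tmem14a. Uncalled genes near 0 changed sign when 1 array was left out, with differences of -0.281 to 0.2905 for Gimap3, -0.1192 to 0.0664 for Col1a1, -0.1914 to 0.0118 for Il1b, -0.1672 to 0.0429 for Siglech, -0.0571 to 0.0763 for Tlr9, -0.0542 to 0.3399 for Clec4a4 and -0.0485 to 0.3691 for Zbtb32, and so did the medians of 16 of 48 lists, among them the tolerance-associated (-0.049 to 0.091), Gimap (-0.265 to 0.306), T cell (-0.099 to 0.211), immediate-early (-0.297 to 0.08) and pan-cDC (-0.077 to 0.056) lists. Genes below the array median have little signal over background, and small differences there were not detectable.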

Other observations

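A pair of tested genes differed by more than 1.5 units in resting CD11b+ cDC without being called by limma, and both were named after their values were seen. Kcnma1, a calcium-activated potassium channel gene, stood at 4.62, 8.50 and 10.57 on the NOD arrays, against 3.56, 4.15 and 4.17 on the B6 arrays (3.94 ± 1.47, adjusted p = 0.146). Its NOD arrays did not overlap with the B6 arrays but spread over about 6 units, with replicate 3 the highest. Igha, the heavy chain of IgA, stood at 7.31, 7.55 and 9.46 on the NOD arrays, against 6.88, 6.93 and 5.55 on the B6 arrays (1.65 ± 0.51, adjusted p = 0.0581), again with NOD replicate 3 the highest. The summed level of the B cell markers was highest on the same array, at 12.37.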
